A study of Mus musculus with 15 samples.

Results

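The genes of cholesterol uptake and efflux followed here in tumor-associated macrophages (TAMs) are Abca1, Abcg1, Apoe, Pltp, Lpl, Lipa, Npc1, Npc2 and Soat1. They are the 9 rows, of 55335 in the expression table, whose gene symbol is on that list, and each has a single row. All 9 had a mean of at least 1 FPKM (fragments per kilobase of transcript, scaled to the mapped fragments of the sample), as did 11419 genes in all. The TAMs were sorted with antibodies against the products of Itgam (CD11b) and Adgre1 from HCC (hepatocellular carcinoma) grown in the liver of C57BL/6 mice after inoculation of Hepa1-6 cells, a mouse hepatoma line. The 3 groups differed in the tumor cells: control cells, cells overexpressing miR-144 after lentiviral infection, and cells overexpressing miR-451a in the same way. There were 5 RNA-seq samples in each group, 15 in all. All groups share the tumor line, the mouse strain and the sort, and the miRNAs were overexpressed in the tumor cells, not in the TAMs that were sequenced. The study's own description of this sequencing gives a smaller sample number per group than the labels do, and neither says how the deposited samples relate to mice, so p-values measure the spread between these samples, which may be technical. The age and sex of the mice and any pooling are not given in the sources used here.

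Macrophages take up lipoproteins and dying cells, and the cholesterol esters they carry are cut in the lysosome by the acid lipase encoded by Lipa. Npc2, a soluble lysosomal protein, hands the free cholesterol to Npc1 in the lysosomal membrane, which exports it. Cholesterol in excess is either esterified again by Soat1 and stored in lipid droplets, or leaves the cell through the ABC transporters Abca1 and Abcg1 to apolipoprotein acceptors and HDL particles. Apoe is a lipid acceptor that macrophages secrete, Pltp moves phospholipids between lipoproteins, and Lpl cuts the triglycerides of lipoproteins. Abca1, Abcg1, Apoe, Pltp and Lpl are known targets of the liver X receptors (LXRs), nuclear receptors that sense oxysterols.

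The samples carried macrophage transcripts, almost none of the markers of hepatocytes and lymphocytes, and some of fibroblasts and, in control, the adipocyte gene Adipoq. Of 8 macrophage markers, 7 (Csf1r, Adgre1, Itgam, Lyz2, Mertk, Fcgr1 and C1qa) were higher with either miRNA than in control and Cd68 was lower. The summed macrophage markers ranged from 8936 to 9800 FPKM in control, from 15765 to 17471 in miR-144 and from 15479 to 16581 in miR-451a. Of the genes that define hepatocytes, Alb, Ttr, Apoa1, Apoc3 and Serpina1a were listed at 0 in every sample, and the sum of the 6 hepatocyte or hepatoma markers did not exceed 0.253 FPKM. The Kupffer cell gene Clec4f was listed at 0 in every sample, while the sum of the 6 Kupffer cell markers was 5.42 to 6.08 FPKM in control, 23.3 to 55.4 in miR-144 and 22.8 to 54.7 in miR-451a, most of it Cd5l. Chil3 and Ear2, here on a list of alveolar macrophage markers, made up nearly all of a sum of 4048 to 5819 FPKM in control, which was at most 1.71 FPKM with either miRNA. Only 2 of the 4 markers on that list reached a mean of 1 FPKM. Of 3 adipocyte markers, Adipoq had a mean of 21.4 FPKM in control and under 0.04 FPKM with either miRNA, while Plin1 was at 0 and Cidec had a mean of 0.0023 FPKM in control. The summed markers of T and NK cells, B cells, dendritic cells and neutrophils did not exceed 1.16 FPKM in any sample, those of endothelial cells 5.93 FPKM and those of large peritoneal macrophages 3.52 FPKM. The sum of 4 fibroblast or stellate cell markers, mostly Col1a1, was 69.0 to 87.5 FPKM in control, 89.3 to 141 in miR-144 and 122 to 156 in miR-451a, and Lrat was at 0 in each sample. The sum of 3 microglia markers, P2ry12, Tmem119 and Sall1, was 2.43 to 3.22 FPKM in control, 5.84 to 7.19 in miR-144 and 4.91 to 6.26 in miR-451a, with Sall1 at 0 throughout, and that of 4 monocyte markers, mostly Plac8, was 2.39 to 3.75, 7.05 to 11.98 and 6.59 to 11.1 FPKM. Of the proliferation markers, Mki67 was lower and Top2a higher with either miRNA. The sums of the macrophage, Kupffer cell, alveolar macrophage, microglia, monocyte, endothelial, fibroblast and adipocyte lists did not overlap between control and either miRNA group, and their part in the differences below was not tested. Those of the hepatocyte, T and NK cell, B cell, neutrophil and large peritoneal macrophage lists overlapped with control in both miRNA groups. The dendritic cell sum stood apart from control with miR-451a alone (0.318 to 0.491 against 0.234 to 0.295 FPKM), and the proliferation sum with miR-144 alone (7.31 to 8.80 against 9.47 to 10.6 FPKM). Nor can more cells of a kind be told apart in such bulk samples from more RNA per cell.

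Of all genes tested, 47.1% were called higher and 20.1% lower in miR-144 TAMs than in control TAMs (limma on log2(FPKM + 1), adjusted p under 0.05). The same shares for miR-451a were 48.1% and 20.3%. On the log2 scale the median gene lay 0.13 above control in miR-144 TAMs and 0.14 above it in miR-451a TAMs, so a difference of that size is that of the median gene. With each sample shifted to the same median, the share of higher calls among all calls moved from 70.1% to 50.01% for miR-144 and from 70.3% to 49.6% for miR-451a. Rescaled to TPM (each sample set to the same sum) it was 76.5% and 77.3%, and after quantile normalization it was 52.3% in both. Among the 9 genes, 4 were called higher and 4 lower with miR-144, and 4 were called higher and 5 lower with miR-451a. Their median difference was -0.04 in the first comparison and -0.14 in the second. The lower share of these genes is thus above that of all genes, and the higher share near it, over 9 genes chosen with these data known. Both comparisons use the same 5 control samples.

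**Figure D1:**
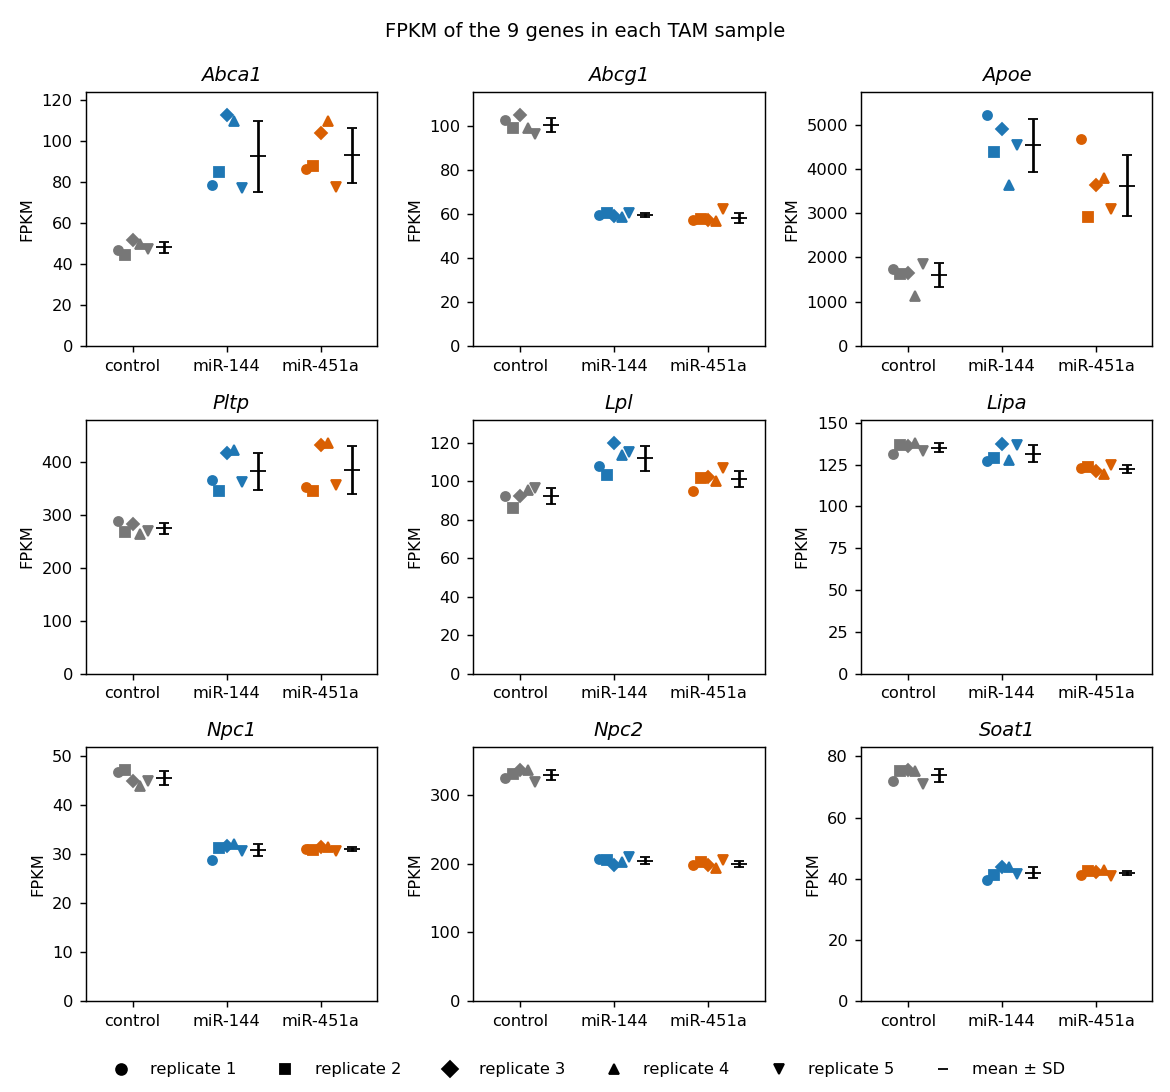
FPKM (vertical axes, linear from 0) of the 9 genes in the 5 samples of each group, with marker shapes for the replicate number in the labels and black bars for the mean ± SD (n = 5). Abca1, Apoe and Pltp of both miRNA groups sit above every control sample, and Abcg1, Npc1, Npc2 and Soat1 sit below every control sample.

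The 2 efflux pumps moved in opposite directions. Abca1, which loads phospholipid and cholesterol onto lipid-poor apolipoproteins, had FPKM values of 46.9, 44.5, 51.8, 49.8 and 47.1 in the control samples. They were 78.2, 84.6, 112, 109 and 77.01 in the miR-144 samples, and 86.0, 87.6, 104, 110 and 77.4 in the miR-451a samples. Every miRNA sample thus lay above every control sample. The means were 48.0 ± 2.83 FPKM in control, 92.3 ± 17.3 in miR-144 and 92.9 ± 13.4 in miR-451a (SD, n = 5), a 1.92-fold and a 1.94-fold higher level. The log2 difference was 0.91 (SE 0.12, limma adjusted p = 5.16e-06) with miR-144 and 0.93 (SE 0.12, adjusted p = 4.05e-06) with miR-451a. Of all genes, 5.67% rose more than Abca1 with miR-144.

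Abcg1, which exports cholesterol to HDL particles, had FPKM values of 103, 99.3, 105, 99.1 and 96.4 in control. In the miR-144 samples it lay between 58.5 and 60.6 FPKM, and in the miR-451a samples it was 57.2, 57.6, 57.4, 56.8 and 62.1. Every miRNA sample lay below every control sample, and within groups Abcg1 varied little, with a coefficient of variation of 3.34% in control, 1.47% in miR-144 and 3.74% in miR-451a. Its log2 difference was -0.74 (SE 0.03, limma adjusted p = 1.21e-11) with miR-144 and -0.78 (SE 0.03, adjusted p = 6.47e-12) with miR-451a. Of all genes, 4.79% and 4.62% fell further. FPKM is scaled to transcript length but not for other differences between genes, so a ratio of 2 genes is better compared between groups than with 1. The ratio of Abca1 to Abcg1 within a sample was 0.448 to 0.502 in control, 1.28 to 1.90 in miR-144 and 1.25 to 1.93 in miR-451a. The pump with the higher FPKM was Abcg1 in each control sample and Abca1 in each miRNA sample.

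The 3 genes of secreted lipoprotein proteins were called higher with both miRNAs, where 47.1% and 48.1% of all genes were. Apoe was the highest of the 9 genes in every group. It had 1747, 1634, 1660.4, 1126 and 1847 FPKM in the control samples, 5217, 4384, 4899, 3639.9 and 4540 FPKM in the miR-144 samples and 4669, 2907, 3646, 3798 and 3092 FPKM in the miR-451a samples. The 3 ranges show no miRNA sample within the control range, while miR-144 and miR-451a overlap. Means were 1603 ± 279, 4536 ± 596 and 3622 ± 693 FPKM (SD, n = 5). This was a 2.83-fold higher level with miR-144 (log2 difference 1.51, SE 0.15, limma adjusted p = 2.92e-07) and a 2.26-fold higher level with miR-451a (1.18, SE 0.15, adjusted p = 4.33e-06). In control, 24 genes had a higher mean FPKM than Apoe, against 4 in miR-144 and 5 in miR-451a.

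Pltp had FPKM values of 289, 268, 282, 263 and 269 in control, 364, 344, 416, 421 and 361 in miR-144 and 352, 345, 431, 436 and 356 in miR-451a. The miRNA groups did not overlap with control and overlapped with each other. Its log2 difference was 0.47 (SE 0.08, limma adjusted p = 5.75e-05) with miR-144 and 0.48 (SE 0.08, adjusted p = 4.70e-05) with miR-451a. Lpl moved least of the 3. It ranged from 86.0 to 96.5 FPKM in control (median 92.5), from 103 to 120.2 in miR-144 (median 114) and from 95.3 to 107 in miR-451a (median 102). The miR-144 samples lay above all control samples, with a log2 difference of 0.27 (SE 0.04, limma adjusted p = 6.71e-05). This difference was 0.14 with samples shifted to the same median, and it stayed called in every alternative setting (highest limma adjusted p = 0.0211). With miR-451a, 4 of 5 samples lay above all control samples, and the log2 difference of 0.13 (SE 0.04, adjusted p = 0.0178) was about that of the median gene. This call for Lpl was lost without control replicate 2 (0.10, adjusted p = 0.0520), and the difference was -0.02 (adjusted p = 0.800) with samples shifted to the same median.

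The genes of lysosomal release and export were lower or near control. Npc1 ranged from 44.0 to 47.2 FPKM in control, from 28.8 to 32.0 in miR-144 and from 30.6 to 31.5 in miR-451a. Its log2 difference was -0.55 (SE 0.03, limma adjusted p = 4.74e-10) with miR-144 and -0.54 (SE 0.03, adjusted p = 5.67e-10) with miR-451a. Npc2 had 325, 331, 336, 336 and 319 FPKM in control, 207, 206, 198, 202 and 209.9 FPKM in miR-144, and 198, 203, 198, 193 and 205 FPKM in miR-451a. It was thus the second of the 9 genes by level in control and the third in both miRNA groups, behind Pltp. The log2 difference of Npc2 was -0.69 (SE 0.03, limma adjusted p = 5.86e-12) with miR-144 and -0.72 (SE 0.03, adjusted p = 3.00e-12) with miR-451a. Npc2 fell more than Npc1 on this scale with either miRNA. The ratio of Npc1 to Npc2 was 0.131 to 0.144 in control, 0.139 to 0.159 in miR-144 and 0.149 to 0.163 in miR-451a, so that each miR-451a sample lay above each control sample while miR-144 overlapped with control.

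Lipa, the lysosomal acid lipase, was the gene closest to control with miR-144, while with miR-451a Lpl was closer. It had 131, 136, 136, 138 and 133 FPKM in control and 127, 129, 137, 128 and 137 FPKM in miR-144, which overlap. It had 123, 124, 121, 119 and 125 FPKM in miR-451a, below every sample of the other groups. Lipa was not called with miR-144 (log2 difference -0.04, SE 0.03, limma adjusted p = 0.264) and was called lower with miR-451a (-0.14, SE 0.03, adjusted p = 0.000453). Both values depend on the scaling. With samples shifted to the same median, the miR-144 difference was -0.17 (adjusted p = 0.000224). It was 0.03 after rescaling to TPM and 0.09 after quantile normalization, neither called. The miR-451a call was lost after rescaling to TPM (-0.06, adjusted p = 0.105) and after quantile normalization (-0.04, adjusted p = 0.421).

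Soat1, the enzyme that esterifies cholesterol for storage, fell furthest of the 9 genes. With miR-451a, Abcg1 was close, at -0.78 with all samples and -0.80 without replicate 5, so the order of these genes is not firm there. It had 72.1, 75.1, 75.5, 75.3 and 71.1 FPKM in control, 39.5, 41.2, 43.7, 43.7 and 41.6 FPKM in miR-144 and 41.2, 42.4, 42.2, 42.8 and 41.1 FPKM in miR-451a. All miRNA samples lay below all control samples, and the fold of mean FPKM was 0.568 for either miRNA. Its log2 difference was -0.80 with each miRNA (SE 0.03, limma adjusted p = 7.46e-12 for miR-144 and 6.87e-12 for miR-451a). The ratio of Abca1 to Soat1 was 0.592 to 0.686 in control, 1.85 to 2.57 in miR-144 and 1.88 to 2.56 in miR-451a. The ratio of the other pump, Abcg1, to Soat1 overlapped between all groups, at 1.32 to 1.42 in control, 1.34 to 1.51 in miR-144 and 1.33 to 1.51 in miR-451a.

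**Figure D2:**
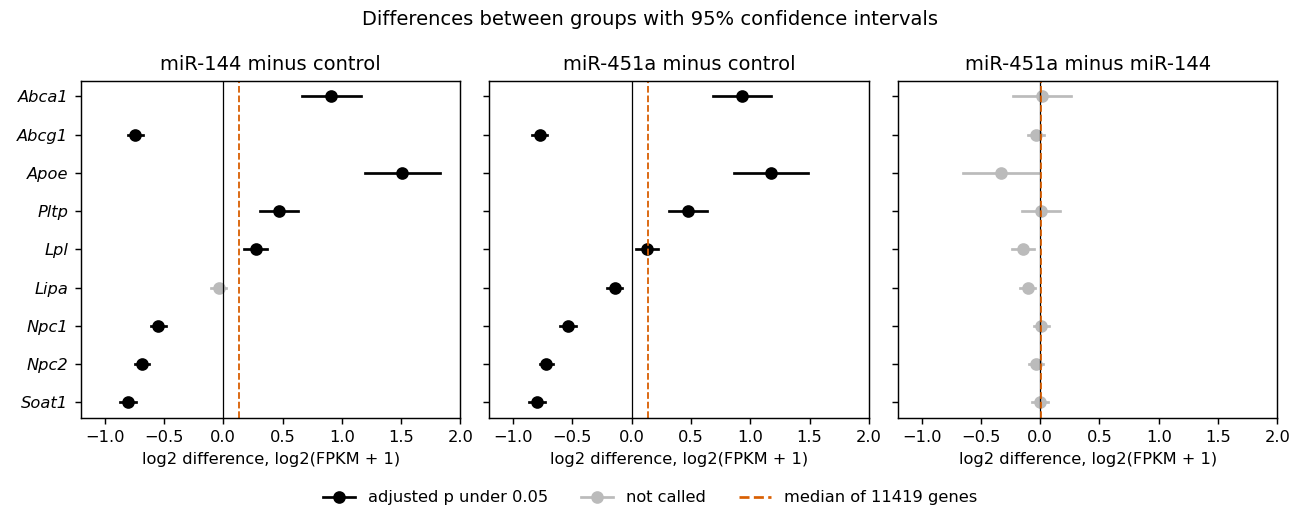
Log2 differences on the log2(FPKM + 1) scale (horizontal axes) of the 9 genes in the 3 comparisons, with 95% confidence intervals, black where limma called the gene and grey where it did not, and a dashed line at the median of all 11419 genes. Abca1, Apoe, Pltp and Lpl lie right of 0 and Abcg1, Npc1, Npc2 and Soat1 left of it against control, while all 9 are grey between the miRNA groups.

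Counted by overlap, 4 of the 9 genes in miR-144 TAMs and 3 in miR-451a TAMs had all samples above control, where 37.9% and 38.8% of all genes did. All samples lay below control for 4 genes in miR-144 TAMs and for 5 in miR-451a TAMs, where 16% and 16.4% of all genes did. Within control, the order of mean FPKM was Apoe, Npc2, Pltp, Lipa, Abcg1, Lpl, Soat1, Abca1 and Npc1. The ranges of neighbours in that order overlapped for Abcg1 and Lpl and for Abca1 and Npc1, and for no other neighbours. In both miRNA groups the order was Apoe, Pltp, Npc2, Lipa, Lpl, Abca1, Abcg1, Soat1 and Npc1, and the ranges of Lpl and Abca1 overlapped there. Abca1 therefore moved from the eighth place to the sixth, and Abcg1 from the fifth to the seventh.

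The scaling changed the size of these differences more than their direction. Over FPKM as deposited, TPM, median centring and quantile normalization, Abca1, Apoe and Pltp stayed higher and Abcg1, Npc1, Npc2 and Soat1 stayed lower with either miRNA, all called. Apoe ranged most, from 1.03 with median centring to 1.59 with quantile normalization for miR-451a and from 1.38 to 1.79 for miR-144. Lpl with miR-451a and Lipa with either miRNA were the values that crossed 0 or the threshold, as given above.

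**Figure D3:**
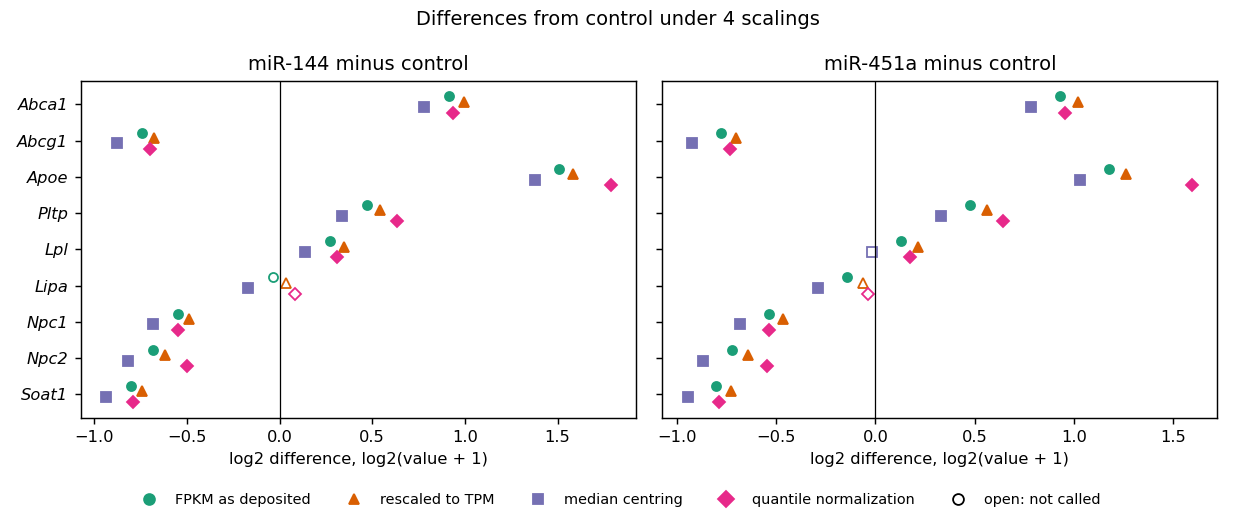
Log2 differences from control (horizontal axes, log2 scale) of the 9 genes under 4 scalings, with filled symbols for an adjusted p under 0.05 and open symbols for genes not called. Lipa in both panels and Lpl for miR-451a are the genes with open symbols, and the other genes keep their side of 0.

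No gene was called between the miRNA groups: of all genes, 0% passed the adjusted p (limma, lowest adjusted p = 0.0752) and 5.22% had an unadjusted p under 0.05. Among the 9 genes, adjusted p was 0.775 or more, and Lipa, Lpl and Apoe had an unadjusted p under 0.05. Lipa was lower in miR-451a by a log2 difference of -0.11 (95% confidence interval -0.17 to -0.04, limma adjusted p = 0.775), and its groups did not overlap, which held for 0.849% of all genes. Lpl differed by -0.14 (-0.24 to -0.05, limma adjusted p = 0.827) and Apoe by -0.33 (-0.65 to -0.02, adjusted p = 0.946). For Soat1 the interval was -0.07 to 0.07, for Npc1 -0.06 to 0.08, for Npc2 -0.09 to 0.02 and for Abcg1 -0.10 to 0.03. It was wider for Pltp (-0.15 to 0.17) and for Abca1 (-0.23 to 0.26), and widest for Apoe, as given above, so that differences within these limits could have been missed.

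Abca1 and Pltp varied by replicate number within groups. Replicates 3 and 4 had the highest Abca1 of all 5 samples in each of the 3 groups. In miR-144 they had 112 and 109 FPKM where the others had 77.01 to 84.6, and in miR-451a 104 and 110 FPKM where the others had 77.4 to 87.6. The difference was smaller in control, 51.8 and 49.8 FPKM against 44.5 to 47.1, and the coefficient of variation of Abca1 was 5.91% in control, 18.7% in miR-144 and 14.4% in miR-451a. Pltp showed the same order in the miRNA groups, with 416 to 436 FPKM in replicates 3 and 4 and 344 to 364 FPKM in the others, but not in control, where replicates 1 and 3 were highest. Without replicates 3 and 4 of every group, Abca1 still differed from control by 0.78 and 0.84 (limma adjusted p = 4.85e-06 and 2.71e-06) and Pltp by 0.37 and 0.35 (6.59e-05 and 8.93e-05). The labels give no batch for these numbers.

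Over the 15 samples, the deviations of Abca1 and Pltp from their group means had a Pearson r of 0.83, the highest of the 36 pairs among the 9 genes, and Pltp and Npc2 had the lowest, -0.66. Within a sample the genes share library and depth, and these correlations are a description with no test. By the same measure over all genes, the genes most like Abca1 were Cnrip1 (r = 0.98) and Pitpnc1 (r = 0.98), and those most like Pltp were Fcgrt (0.94), the neonatal Fc receptor, and Sulf2 (0.93), a heparan sulfate sulfatase. Soat1 was closest to Cd84 (0.94), a leukocyte surface receptor, and Eepd1 (0.93), Npc1 to Stard8 (0.92) and 1810030O07Rik (0.86), and Npc2 to Cd300ld (0.89) and Ston2 (0.89). Lpl was closest to Rasgef1b (0.93) and Crkl (0.80), Abcg1 to Pcyt1a (0.88), which makes a phosphatidylcholine precursor, and St3gal1 (0.84), Apoe to Eid2b (0.88) and Gm14270 (0.87), and Lipa to Cdk13 (0.82) and Rce1 (0.81).

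**Figure D4:**
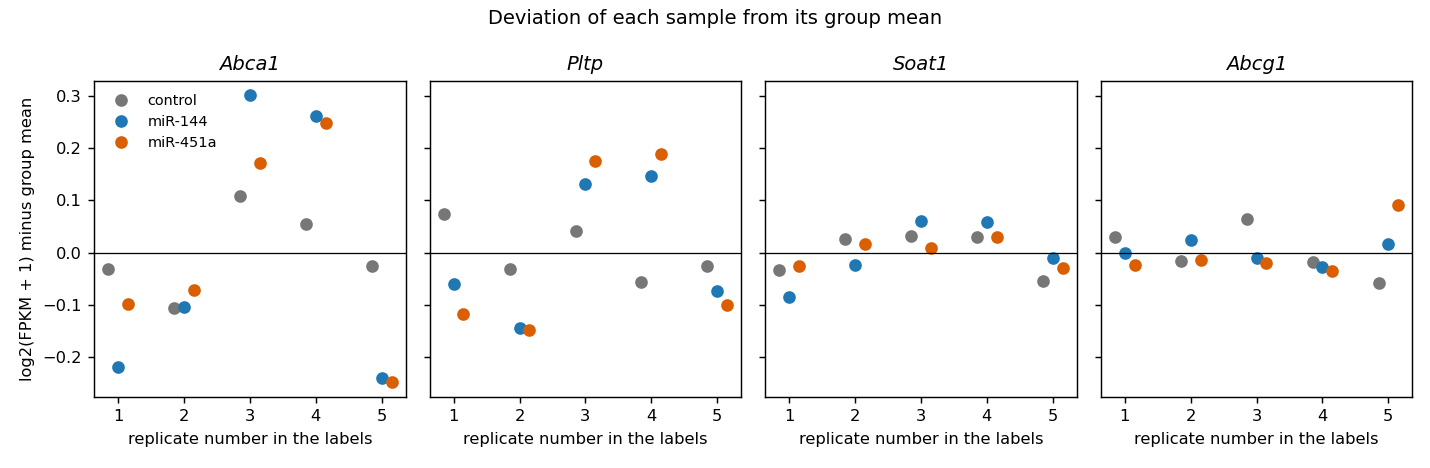
Deviation of log2(FPKM + 1) from the group mean (vertical axis, log2 scale) against the replicate number of the labels for Abca1, Pltp, Soat1 and Abcg1, with 1 point per sample. Replicates 3 and 4 lie above 0 for Abca1 and Soat1 in all groups and for Pltp in both miRNA groups. Both Soat1 and Abcg1 deviate by less than 0.1 in every sample.

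Other genes of the same pathway moved in both directions. Of 52 further genes listed by role, 40 had a mean of at least 1 FPKM. Of these, 18 were called higher and 15 lower with miR-144 and 19 higher and 15 lower with miR-451a, with a median difference of 0.08 and 0.06. As deposited, the share of higher calls was near that of all genes (47.1% and 48.1%) and the share of lower calls above it (20.1% and 20.3%). With samples shifted to the same median, the miR-144 comparison had 15 higher and 17 lower calls, and the miR-451a comparison 14 and 18. Of all 11419 genes, 3512 were then called higher and 3511 lower with miR-144, and 3577 and 3636 with miR-451a. None of the 40 was called between the miRNA groups.

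Among 5 lipoprotein and scavenger receptors or their adaptors, 3 were called higher and 1 lower with each miRNA. Of all genes, 47.1% and 48.1% were called higher and 20.1% and 20.3% lower, so the shares of this short list are near the background. The smallest of the higher calls was lost with either miRNA after median centring and quantile normalization, and Lrp1 was called lower after median centring (-0.19 and -0.24, limma adjusted p = 0.00827 and 0.00184). Cd36, which takes up oxidized LDL and fatty acids, was the one called lower as deposited, from 200.3 ± 11.9 FPKM in control to 45.4 ± 5.17 in miR-144 and 41.8 ± 2.19 in miR-451a (SD, n = 5, log2 differences -2.12 and -2.23, limma adjusted p = 6.09e-13 and 3.13e-13). Msr1, a scavenger receptor for modified LDL, had the largest rise of the list, from 10.6 ± 0.323 FPKM to 15.2 ± 2.08 and 15.2 ± 1.81 (0.48 in both, adjusted p = 0.000164 and 0.000145).

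Of 14 sterol-sensing factors and their regulators, 4 rose and 7 fell with miR-144, and 5 rose and 7 fell with miR-451a, where 47.1% and 20.1% of all genes and 48.1% and 20.3% did. With miR-451a, 3 higher calls were left after median centring or quantile normalization, without those of Scap and Nr1h2. Of all 11419 genes, 3577 and 3760 were called higher with miR-451a under these scalings. Rescaled to TPM, 6 rose and 6 fell with either miRNA. Of all genes, 6128 were then called higher and 1878 lower with miR-144, and 6351 and 1861 with miR-451a. Nr1h3, which encodes LXR alpha, fell from 18.4 ± 2.09 FPKM to 8.45 ± 0.454 and 7.46 ± 0.547 (-1.03 and -1.19, limma adjusted p = 2.87e-09 and 5.07e-10). Nr1h2, which encodes LXR beta, had 16.4 ± 2.30, 18.4 ± 0.845 and 19.8 ± 2.89 FPKM, a difference of 0.17 (adjusted p = 0.150) with miR-144 and of 0.26 (adjusted p = 0.0301) with miR-451a that was not called with samples shifted to the same median or after quantile normalization. Mylip, an LXR target and ubiquitin ligase, rose from 27.7 ± 0.933 FPKM to 39.7 ± 2.69 and 38.1 ± 3.31 (0.50 and 0.44, adjusted p = 1.50e-06 and 5.83e-06). Pparg, a lipid-sensing nuclear receptor, had the largest fall of the list, from 37.4 ± 3.36 FPKM to 9.55 ± 0.600 and 9.60 ± 0.531 (-1.86 and -1.85, adjusted p = 6.65e-13 and 6.19e-13). Ppard, a related receptor, had the largest rise as deposited, from 1.96 ± 0.102 FPKM to 3.34 ± 0.189 and 3.36 ± 0.291 (0.55 and 0.56, adjusted p = 7.41e-08 and 6.49e-08). After quantile normalization Mylip rose more, by 0.48 and 0.41 against 0.39 and 0.38 for Ppard. Srebf2, the transcription factor of cholesterol synthesis, fell from 28.7 ± 1.50 FPKM to 22.7 ± 2.99 and 22.5 ± 3.06 (-0.34 and -0.35, adjusted p = 0.00555 and 0.00443).

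Of 3 further lipoprotein and lipase genes tested, Apoc2, the activator of lipoprotein lipase, was the one called. Lmf1, which helps lipases to fold, was also called lower with either miRNA after median centring and quantile normalization. Apoc2 lies in the same gene cluster as Apoe and rose from 18.0 ± 2.84 FPKM to 159.8 ± 15.6 and 159.8 ± 4.49 (3.09 in both, limma adjusted p = 1.83e-13 and 1.58e-13), a larger difference than that of Apoe. All 3 further ABC lipid transporters tested were called higher, as were 47.1% and 48.1% of all genes, with Abca9 first, at 2.44 ± 0.187 FPKM in control, 20.5 ± 1.69 in miR-144 and 21.5 ± 1.75 in miR-451a (2.64 and 2.71, adjusted p = 2.39e-14 and 1.76e-14).

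Of 11 genes of intracellular sterol transport, 6 were called higher and 4 lower with each miRNA, beside 47.1% higher and 20.1% lower of all genes with miR-144 and 48.1% and 20.3% with miR-451a. The higher calls of small size depend on the scaling, and 4 were left with either miRNA after median centring or quantile normalization, without those of Osbp, Stard5 and Osbpl2. Of all 11419 genes, 3512 and 3577 were called higher after median centring and 3657 and 3760 after quantile normalization. With miR-451a, Stard5 was called lower under both scalings (-0.09 in each, limma adjusted p = 0.0210 and 0.0318). Lamp1 lost its lower call with either miRNA after quantile normalization, and Lamp2 after rescaling to TPM. Gramd1b, which carries accessible cholesterol from the plasma membrane to the endoplasmic reticulum, rose most, from 4.19 ± 0.201 FPKM to 9.95 ± 1.71 and 10.3 ± 1.95 (1.06 and 1.11, limma adjusted p = 7.69e-07 and 4.54e-07). Tmem97, the sigma-2 receptor that binds Npc1, fell most, from 23.4 ± 0.928 FPKM to 12.5 ± 0.725 and 12.4 ± 0.893 (-0.86 and -0.87, adjusted p = 6.49e-10 and 5.13e-10).

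Of 4 genes of ester hydrolysis, storage and oxysterols, 3 fell and 1 rose with each miRNA, where 20.1% to 20.3% of all genes fell and 47.1% to 48.1% rose. Plin2, the coat protein of lipid droplets, fell from 322 ± 9.34 FPKM to 151 ± 7.64 and 143 ± 2.93 (-1.09 and -1.16, limma adjusted p = 7.03e-13 and 3.03e-13). Nceh1, which hydrolyses cholesterol esters outside the lysosome, fell from 84.2 ± 2.66 FPKM to 63.5 ± 1.18 and 61.2 ± 0.718 (-0.40 and -0.45, adjusted p = 2.30e-09 and 5.10e-10). Ch25h, which makes 25-hydroxycholesterol, had 3.78 ± 0.506, 1.85 ± 0.4998 and 1.88 ± 0.269 FPKM (-0.76 and -0.73, adjusted p = 2.68e-05 and 3.88e-05). Cyp27a1, which makes 27-hydroxycholesterol, rose from 22.9 ± 0.534 FPKM to 66.8 ± 4.77 and 67.9 ± 2.97 (1.50 and 1.53, adjusted p = 3.01e-13 and 2.35e-13).

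**Figure D5:**
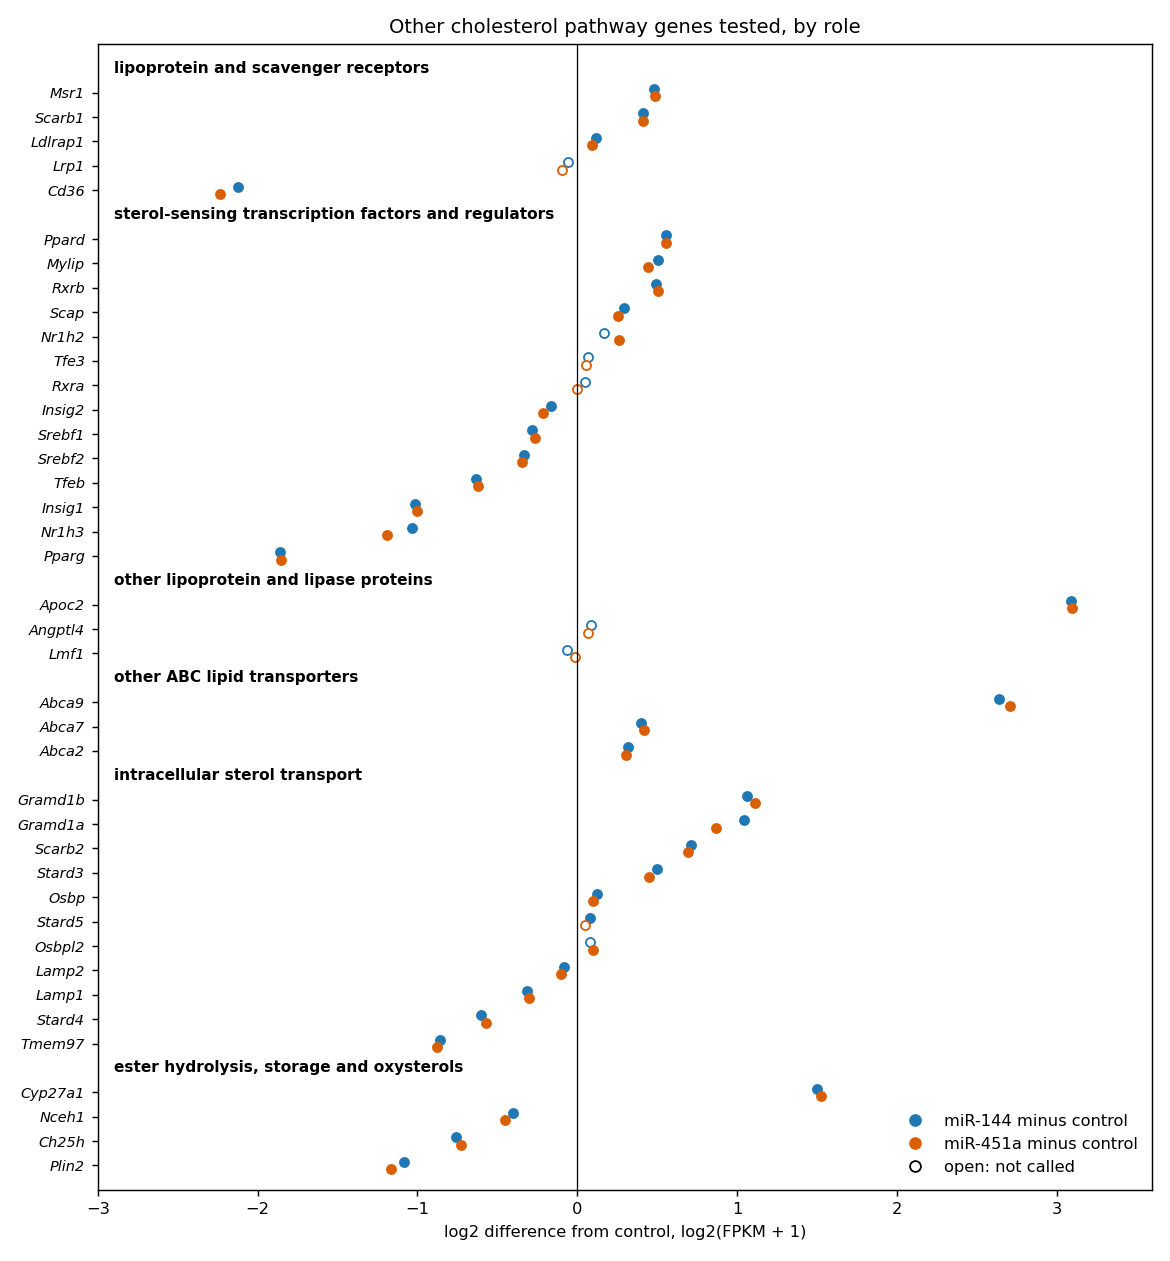
Log2 differences from control on the log2(FPKM + 1) scale (horizontal axis) of 40 further cholesterol pathway genes in 6 role lists, blue for miR-144 and orange for miR-451a, open where limma did not call the gene. Cd36, Pparg, Plin2, Nr1h3 and Insig1 lie left of -1 and Apoc2, Abca9, Cyp27a1 and Gramd1b right of 1 for both miRNAs.

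Mature forms of miR-144 and miR-451a are given here with their seeds, bases 2 to 8, in capitals, to show which letters were searched in the 9 genes. The labels name miR-144 without its arm, so both arms were searched. The mature sequences are those of RefSeq and lie on chromosome 11 of GRCm38.p6, plus strand, at 78073047 to 78073066 for mmu-miR-144-3p, at 78073010 to 78073032 for mmu-miR-144-5p and at 78073186 to 78073207 for mmu-miR-451a.
mmu-miR-144-3p: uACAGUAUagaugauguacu
mmu-miR-144-5p: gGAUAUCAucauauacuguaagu
mmu-miR-451a: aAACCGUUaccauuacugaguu
The longest annotated 3′ UTR of each gene in GENCODE M21 was read for ATACTGT, the 7-letter match to the miR-144-3p seed, for TGATATC, the match to the miR-144-5p seed, and for AACGGTT, the match to the miR-451a seed. Of 9989 tested genes with such a UTR, 13.6% held the first, 5.69% the second and 1.83% the third. Among the 9 genes, Abca1 held 2 miR-144-3p matches and the others none, and none held a miR-144-5p or a miR-451a match. Soat1 has the longest of these UTRs (6534 bases), and Pltp the shortest (188 bases). The matches of Abca1 begin at bases 116 and 2791 of its 3′ UTR of 3156 bases and are shown with their flanks, the match in capitals (GRCm38, minus strand, chr4:53033815-53033840 and chr4:53031140-53031165).
Abca1 match 1: aagaacaaactggATACTGTactgac
Abca1 match 2: taacgccacagtaATACTGTtctgat
Abca1, the gene with these matches, had the higher FPKM in both miRNA groups. The table does not measure the mature miRNAs in the TAMs.

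Promoters, 250 bases before to 50 after the start site, were given in RefSeq for Abca1, Apoe, Pltp, Lipa, Npc2 and Soat1, and not for Abcg1, Lpl and Npc1. They were read on both strands for the LXR-type element, a direct repeat of AGGTCA with 4 bases between the copies. The closest match was that of Abca1, with 3 mismatches over the 12 letters, at position -67 from the start site and on the opposite strand, while the other promoters differed by 4 or 5 letters. A match with at most 3 mismatches was present in 21.9% of 32851 mouse promoters. The Abca1 promoter is shown for this reason, with both copies of the repeat in capitals (GRCm38.p6, minus strand, chr4:53159846-53160145).
Abca1 promoter: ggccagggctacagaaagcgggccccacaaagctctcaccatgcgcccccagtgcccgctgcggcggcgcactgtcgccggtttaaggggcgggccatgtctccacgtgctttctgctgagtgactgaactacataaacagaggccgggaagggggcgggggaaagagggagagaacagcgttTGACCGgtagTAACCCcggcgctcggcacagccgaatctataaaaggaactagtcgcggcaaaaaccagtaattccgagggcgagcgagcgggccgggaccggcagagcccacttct
The same promoter holds 1 E-box (CACGTG), present in 7.15% of all promoters, and 2 GC boxes (GGGCGG), present in 35.7%. These matches describe the letters of the window, and no binding was measured.

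In the GENCODE M21 annotation of GRCm38, which may differ from the build behind the table, all 9 are protein-coding genes. On the minus strand lie Abca1 (chromosome 4, 53030787 to 53159895), Apoe (chromosome 7, 19696109 to 19699188), Pltp (chromosome 2, 164839518 to 164857711), Lipa (chromosome 19, 34492318 to 34527474), Npc1 (chromosome 18, 12189692 to 12236400), Npc2 (chromosome 12, 84754562 to 84773152) and Soat1 (chromosome 1, 156424525 to 156474331). On the plus strand lie Abcg1 (chromosome 17, 31057675 to 31117988) and Lpl (chromosome 8, 68880491 to 68907448).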

How the data were processed

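TAMs from 15 samples were sequenced by the authors on an Illumina HiSeq instrument after Trizol extraction, and they deposited FPKM per gene and sample. STAR, StringTie and FastQC (0.11.2) are listed in the submitters' processing notes. Genome build and annotation are not given in the sources used here. Of the identifiers, 99.7% occur in GENCODE M21.

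Groups and replicate numbers came from the sample labels. limma 3.58.1 (R 4.3.3) was fitted to log2(FPKM + 1) of all 3 groups together, with a mean-variance trend, over every gene whose mean reached 1 FPKM, and p-values were adjusted over all of them (Benjamini-Hochberg). This scale understates the change of low genes. This fit was first tested on simulated data. Sums of FPKM were 283362 to 307552 per sample. Of the low values, 34.4% to 46.7% per sample lay within 0.05 of a whole fragment, and as the others did not, counts were not recovered. The size of a fragment was set at the commonest low value of the same sample, so part of this share is built in. The implied depth, 15.5 to 30.3 M fragments per sample, is approximate, and the precision rests on the 5 samples per group. Sequence steps used Python 3.11.15 with numpy 2.4.6 and pandas 2.3.3, and plots matplotlib 3.10.9.

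The 9 genes, the pathway lists and the markers were chosen with earlier results of these data known. Named were the 9 genes, Nr1h3, Nr1h2, Mylip, Cd36, Ch25h, Cyp27a1, Nceh1, Plin2 and Srebf2, the largest called rise and fall of each role list against control, and for each of the 9 genes the 2 genes most like it by Pearson r of deviations from group means. Alternatives were another pseudocount, other filters, TPM, median centring, quantile normalization, a replicate block, no trend, 2 groups per fit and each sample left out. A listed pathway gene and a listed marker are not reported here. Itgam has 2 rows, and both enter the marker sum.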

Additional observations from a re-analysis of the deposited data

Results flagged for a closer look

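Abcg1 in miR-451a replicate 5 had 62.1 FPKM, above the 56.8 to 57.6 FPKM of the other 4 samples of its group, a gap that takes up 0.845 of the group's range (limit 0.71 for 5 samples). The gap test was run on 27 sets of 5 samples, where 1.35 would pass by chance. The sample lies below all control samples (96.4 to 105 FPKM), and without it Abcg1 was lower with miR-451a than in control by a log2 difference of -0.80.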

How the results depend on the processing

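Over 25 alternatives, 8 or 9 of the 9 genes were called with either miRNA against control and 0 between the miRNA groups. Many other genes were called in the same settings. With miR-144 these were 6128 higher and 1878 lower of 11419 genes with TPM, and 6835 and 2851 of 29540 without a filter. Abca1, Abcg1, Apoe, Pltp, Npc1, Npc2 and Soat1 kept direction and call in all 25 alternatives. Lpl with miR-451a reversed to -0.0151 with median centring (adjusted p = 0.800), lost its call without control replicate 2 (0.104, adjusted p = 0.0520) and without replicates 3 and 4 of every group (0.146, adjusted p = 0.0704), a setting chosen after seeing the data, and lay between 0.104 and 0.151 with a sample left out. Lipa with miR-451a lost its call with TPM and quantile normalization, and with miR-144 gained a call with median centring and changed sign, uncalled, with TPM and quantile normalization. Between the miRNA groups, 20 of 225 alternative values changed sign, none called. The cause was not tested. As a replicate block, the label numbers left 8, 9 and 0 calls (miR-144, miR-451a and between the miRNA groups) and lowered the SE of Abca1 from 0.115 to 0.0635. Samples of the same number correlated by more than 0.1 across genes in 1, 3 and 4 of 5 pairs, and 1, 3 and 4 of 5 samples correlated best with their own number. Their mean correlation was -0.01, 0.14 and 0.10, against 0.0031, -0.03 and -0.03 for other pairs. As not every pair passed 0.1, the numbers were not taken to pair the samples, although those of miR-451a deviate with their number in most pairs. Depth is known approximately, and the lowest value of the 9 genes was 28.8 FPKM.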
